A study of Mus musculus with 4 samples.

Results

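The genes described here are 10 transcription factors of the blood lineages, *Tal1*, *Lmo2*, *Gata1*, *Gata2*, *Klf1*, *Gfi1b*, *Runx1*, *Spi1*, *Myb* and *Irf8*, which were looked up by name among the 24637 genes of the table. All 10 were found, *Spi1* (PU.1) under its older symbol *Sfpi1*. Messenger RNA was sequenced from 4 libraries of mouse embryonic stem cell (ESC) lines after cardiac differentiation, in which embryoid bodies were grown for 5 days and then kept on gelatin for 9 more. There were 2 WT lines (*Taf4*+/+) and 2 lines labelled *Taf4a*-/-, in which exons 11 and 12 of the TFIID subunit gene *Taf4a* are deleted. According to the study, all lines were isolated from blastocysts of crosses between *Taf4a*+/- animals and were kept on fibroblast feeders before differentiation. With 2 lines of each genotype, the spread between lines is the error against which the genotypes are compared.

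The first blood cells of the mouse embryo arise from mesoderm together with endothelium, and Tal1, Lmo2, Gata2 and Runx1 act in this step and later in blood stem cells. Tal1, Lmo2 and Ldb1 form a complex with Gata1 or Gata2 on DNA. Gata1 and Gfi1b drive the red cell and megakaryocyte programmes, and Klf1 drives that of red cells. Spi1 and Irf8 drive the myeloid programme and macrophage genes, and Gata1 and Spi1 antagonize each other. Myb maintains proliferating progenitors of the later blood system, and macrophages of the yolk sac can form without it. Endothelial cells also express several of these factors, and *Gata2* and *Tal1* are used in some neurons.

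The libraries held 21732746 to 27733034 reads counted on genes, and values are normalized counts, that is, reads divided by a size factor for each library. Where 2 values are given for a genotype, the first is replicate 1 and the second is replicate 2. The targeted gene *Taf4a* had 889 and 678 normalized counts in WT lines and 1722 and 1799 in those labelled *Taf4a*-/-. A gene-level count does not show the deleted exons. By the test described below, *Taf4a* was called higher under the *Taf4a*-/- label (log2 fold change 1.18, standard error 0.16, limma adjusted p = 0.00569). Since the count was not lower, the genotypes are given as labelled. The study identified its *Taf4a*-/- ESCs by PCR and reported from immunostaining that they lacked Taf4 protein. Of the markers of the labelled cardiac cells, *Tnnt2* had 2730.1 and 3281 normalized counts in WT lines and 484 and 470.04 in the others. The lines also differed within a genotype. *Xist* had 217 and 6470.0 normalized counts in the libraries labelled *Taf4a*-/-, against 6.14 and 7.27 in WT, and the Y-linked *Eif2s3y* had 1688 and 0 in WT and 309 and 0 in the others.

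The genotypes were set against each other by limma for the 16926 genes whose mean was 10 or more, on the log2(value + 1) scale, on which changes of genes with few reads come out too small. Calls were made where the p-value, adjusted over all genes after Benjamini and Hochberg, was under 0.05. All 10 factors passed the filter. Of these, *Spi1*, *Irf8* and *Lmo2* were lower and *Myb* was higher in the libraries labelled *Taf4a*-/-, and 6 were not called. Of all genes tested, 17.3% were called lower and 11.3% higher, so that the counts of 3 and 1 in 10 are not far from the background. With quantile normalization 2 factors were lower and 1 higher, and over all genes the split went from 2928 lower and 1906 higher to 2448 and 2676. Under it the median of all genes shifted from -0.01 to 0.11 (log2 fold change). The median over the 10 factors was -0.59 on the log2 scale. Both libraries labelled *Taf4a*-/- lay below both WT libraries for 4 factors and above them for 1, where 36.6% and 34.5% of all genes did so.

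**Figure D1:**
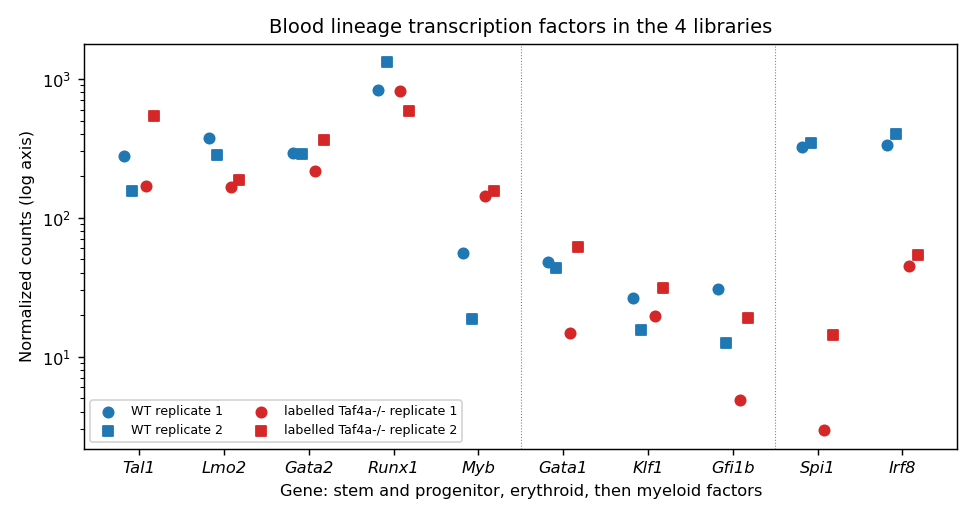
Normalized counts (log axis) of the 10 factors, grouped as stem and progenitor, erythroid and myeloid factors, with 1 point for each of the 4 libraries. The points of *Spi1* and *Irf8* in the libraries labelled *Taf4a*-/- lie far below those of WT, those of *Myb* lie above, and those of *Tal1*, *Gata1*, *Gata2*, *Klf1* and *Gfi1b* overlap.

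*Spi1* (ENSMUSG00000002111), the master factor of macrophages and granulocytes, lies at chr2:90922547-90955913 on the plus strand of NCBIM37, the build of the table (mm9). It had 324 and 343 normalized counts in WT lines against 2.94 and 14.4 in those labelled *Taf4a*-/-, which stand for 3 and 13 reads. Both WT values were far above both others, and the WT libraries differed by only 0.080 on the log2 scale. In normalized counts *Spi1* fell from 334 ± 13.1 to 8.66 ± 8.09 (SD, n = 2 each), 38.5-fold lower by the means. The log2 fold change was -5.43 (standard error, SE, 0.64, limma adjusted p = 0.00378). The value ran from -6.41 to -4.27 over the alternatives, and without WT replicate 2 the adjusted p-value from limma was 0.0529. In RNA from whole cultures, fewer cells of a type and less RNA per cell cannot be told apart, here and in all that follows.

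*Irf8* (ENSMUSG00000041515), a partner of Spi1 in monocytes and macrophages, lies at chr8:123260258-123280594 on the plus strand. It had 332 and 398 normalized counts in WT lines against 45.03 and 54.2 in those labelled *Taf4a*-/-. The groups did not overlap, and the lines of each genotype lay within 0.26 of each other on the log2 scale. *Irf8* fell from 365 ± 46.4 to 49.6 ± 6.48 (SD, n = 2 each), 7.36-fold, with a log2 fold change of -2.86 (SE 0.25, limma adjusted p = 0.00163). It was the only factor of the 10 that was called under each of the 15 alternatives. The libraries labelled *Taf4a*-/- still held 46 and 49 reads of *Irf8*.

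RefSeq gives 2 starts of *Irf8*. In the 250 bases before the first of them, placed at chr8:120736108-120736357 in GRCm38.p6 (plus strand), the letters TATAAA of a TATA box begin 31 bases before the start. They are set in capitals below, because TFIID binds core promoters through such elements among others.

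*Irf8*: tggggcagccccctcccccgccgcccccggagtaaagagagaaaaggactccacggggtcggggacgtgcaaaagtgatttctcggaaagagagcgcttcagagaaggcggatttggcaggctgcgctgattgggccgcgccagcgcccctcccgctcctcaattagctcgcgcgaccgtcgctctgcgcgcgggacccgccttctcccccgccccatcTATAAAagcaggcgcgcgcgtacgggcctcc

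The letters TATAAA (or TTTATA, on the other strand) occur in 12.4% of the 32851 RefSeq promoter windows of this length, and in 1 of the 12 windows of the 8 factors that the RefSeq table holds. *Lmo2* and *Spi1* have no window there. RefSeq windows are thus on a later build than the gene coordinates, which stay on NCBIM37.

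**Figure D2:**
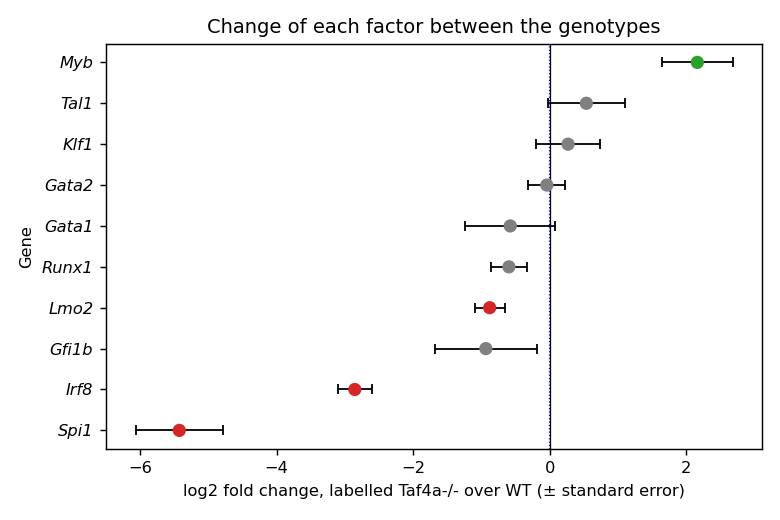
The log2 fold change of each factor (libraries labelled *Taf4a*-/- over WT), with bars for the standard error (SE) from limma. Red points are called lower, green is called higher and grey points are not called, and the blue dotted line is the median of all genes tested, at -0.01. *Spi1* at -5.43 and *Irf8* at -2.86 lie apart from the other 8, which run from -0.94 to 2.16.

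Markers of myeloid cells were read from a list of 30 genes, of which 29 were found and 27 tested. Of these 26 were lower, 0 were higher and 1 was not called, with a median log2 fold change of -5.47, against -0.01 over all genes tested. At an adjusted p-value under 0.01, 23 were lower, and with no variance trend 25 were. Fewer were also called lower when either WT library was left out. The summed level of the list was 18034 and 23496 normalized counts in WT lines against 785 and 1472 in those labelled *Taf4a*-/-, which is 3.78% and 7.09% of the WT mean. *Csf1r*, the receptor for the macrophage growth factor and a known Spi1 target, had 2825 and 3159 normalized counts in WT against 36.2 and 47.6 in the others (log2 fold change -6.14, SE 0.20, limma adjusted p = 0.000286). *Mrc1*, the mannose receptor of macrophages, had 1639 and 2765 against 74.4 and 186, and the lysozyme gene *Lyz2* had 1364 and 2224 against 5.87 and 6.64. *Laptm5*, a lysosomal membrane protein of blood cells, had 1656 and 1966 against 75.4 and 291. The 1 tested gene that was not called was *Csf2ra*, the alpha chain of the GM-CSF receptor (308 and 223 against 236 and 292), which is named here because of its values. In both libraries labelled *Taf4a*-/-, 5 of the 29 genes had at most 5 reads, and in WT 2 genes had so few, the granulocyte genes *Mpo* and *Elane*. The part of the level of macrophage genes in the falls of *Spi1* and *Irf8* was not tested.

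As a description of the sequence before these genes, the letters GAGGAA, the core of the site that Spi1 binds (TTCCTC on the other strand), were searched in the 250 bases before each start. They occurred in 16 of the 25 windows of 22 myeloid genes (64.0%), against 23.3% of all windows, and in 3 of the 12 windows of the factors themselves, those of *Gata1*, *Runx1* and *Tal1*. The window of *Mrc1* lies at chr2:14229164-14229413 (GRCm38.p6, plus strand) and holds 3 matches, in capitals, which begin between 180 and 35 bases before the start.

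*Mrc1*: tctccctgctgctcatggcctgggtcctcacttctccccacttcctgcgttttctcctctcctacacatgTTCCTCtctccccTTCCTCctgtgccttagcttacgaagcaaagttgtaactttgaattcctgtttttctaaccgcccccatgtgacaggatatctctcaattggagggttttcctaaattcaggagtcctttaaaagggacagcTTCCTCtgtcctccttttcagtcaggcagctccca

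A match is not a bound site, and binding was not measured in these cultures.

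Among the factors of stem cells and early progenitors, *Lmo2* (ENSMUSG00000032698, chr2:103798143-103822035, plus strand), the LIM adaptor of the Tal1 complex, had 372 and 283 normalized counts in WT lines against 166 and 186 in those labelled *Taf4a*-/-. The groups did not overlap, with the lowest WT value at 283 and the highest of the others at 186. *Lmo2* fell from 327 ± 63.01 to 176 ± 13.7 (SD, n = 2 each), 1.86-fold, with a log2 fold change of -0.88 (SE 0.22, limma adjusted p = 0.0317). The call was lost with quantile normalization (limma adjusted p = 0.0971), with no variance trend (0.0597) and when any 1 library was left out (0.0547 to 0.134).

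*Tal1* (ENSMUSG00000028717, chr4:114729031-114744360, plus strand), the founding factor of blood formation, had 278 and 155 normalized counts in WT lines against 168 and 540 in those labelled *Taf4a*-/-. The highest value was that of the library labelled *Taf4a*-/- replicate 2, and replicate 1 of that label lay between the WT libraries. The log2 fold change was 0.54 (SE 0.56, limma adjusted p = 0.501), with a mean of 216 ± 87.04 in WT and 354 ± 263 in the others (SD, n = 2 each). Without the library labelled *Taf4a*-/- replicate 1 the value was 1.38 and *Tal1* was called higher (limma adjusted p = 0.0316), and without replicate 2 it was -0.30, so its sign rested on 1 line.

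*Gata2* (ENSMUSG00000015053, chr6:88143885-88157024, plus strand), which sustains progenitors, had 295 and 286 normalized counts in WT lines against 218 and 364 in those labelled *Taf4a*-/-. The WT values lay between the other 2, and the log2 fold change was -0.04 (SE 0.27, limma adjusted p = 0.923), of a sign that changed with the scaling. *Runx1* (ENSMUSG00000022952, chr16:92601712-92826311, minus strand), which is needed for blood cells to emerge from endothelium, was the factor with the most reads. It had 829 and 1313 normalized counts in WT against 812 and 585 in those labelled *Taf4a*-/-. The groups lay next to each other without overlap, and the log2 fold change of -0.60 was not called (SE 0.26, limma adjusted p = 0.137).

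*Myb* (ENSMUSG00000019982, chr10:20844736-20880790, minus strand) was the 1 factor called higher. It had 56.1 and 18.7 normalized counts in WT lines against 144 and 155 in those labelled *Taf4a*-/-. Both of the latter lay above both WT libraries, which differed from each other by 1.54 on the log2 scale. *Myb* rose from 37.4 ± 26.4 to 149 ± 7.73 (SD, n = 2 each), 3.99-fold, with a log2 fold change of 2.16 (SE 0.52, limma adjusted p = 0.0279). The call was lost with no variance trend (limma adjusted p = 0.0747) and without WT replicate 2 (log2 fold change 1.40, adjusted p = 0.0545). The pluripotency gene *Pou5f1* put the 4 libraries in the same order, with 1097 and 278 normalized counts in WT against 3113 and 3325 in the others, and its part in the rise of *Myb* was not tested. Of the exon bases of *Myb*, 13.0% overlap *Gm16786* on the other strand, which the library kit does not separate. *Gm16786* itself had at most 4.89 normalized counts in any library. Before the start of *Myb*, at chr10:21160985-21161234 (GRCm38.p6, minus strand), the window has 81.2% G and C, the highest share among the windows of the factors, with 1 match to CCACCC in capitals.

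*Myb*: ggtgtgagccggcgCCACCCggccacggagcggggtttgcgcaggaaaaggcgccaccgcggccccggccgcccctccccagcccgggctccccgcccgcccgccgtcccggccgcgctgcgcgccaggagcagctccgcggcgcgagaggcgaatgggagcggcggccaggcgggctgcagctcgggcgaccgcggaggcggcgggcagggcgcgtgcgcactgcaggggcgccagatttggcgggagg

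Those letters (or GGGTGG) are the core of the site of Klf factors and occur in 28.1% of all windows and in 2 of the 12 windows of the factors, the other being that of *Gata1*.

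The erythroid factors had few reads in all 4 libraries. *Gata1* (ENSMUSG00000031162, chrX:7536386-7555197, minus strand), the main factor of red cells and megakaryocytes, had 48.2 and 43.6 normalized counts in WT lines against 14.7 and 61.9 in those labelled *Taf4a*-/-. The lowest and the highest value were thus both in libraries labelled *Taf4a*-/-. The log2 fold change was -0.58 (SE 0.66, limma adjusted p = 0.54), and 0.43 without replicate 1 of that genotype. *Klf1* (ENSMUSG00000054191, chr8:87425827-87429194, plus strand), which activates the adult beta globin gene, had 26.3 and 15.6 normalized counts in WT against 19.6 and 30.97 in the others. *Gfi1b* (ENSMUSG00000026815, chr2:28464970-28477502, minus strand), a repressor needed for red cells and platelets, had 30.7 and 12.5 in WT and 4.89 and 18.8 in the others. The groups overlapped for both genes. Their log2 fold changes were 0.27 (SE 0.47) and -0.94 (SE 0.75), with limma adjusted p = 0.693 and 0.379. These 3 genes had 5 to 56 reads in the libraries labelled *Taf4a*-/-.

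The windows before the starts of *Klf1* (chr8:84901732-84901981, plus strand) and *Gfi1b* (chr2:28621983-28622232, minus strand, both GRCm38.p6) are shown because each holds the GATA letters GATAA or TTATC, in capitals. In *Klf1* the capitals also mark ACCACA, the reverse complement of the RUNX letters TGTGGT, and the E-box CAGATG.

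*Klf1*: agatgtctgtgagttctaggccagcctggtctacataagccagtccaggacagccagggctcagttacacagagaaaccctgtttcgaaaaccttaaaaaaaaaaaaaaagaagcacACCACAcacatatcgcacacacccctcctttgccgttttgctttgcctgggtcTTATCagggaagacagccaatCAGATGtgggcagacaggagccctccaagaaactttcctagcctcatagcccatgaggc
*Gfi1b*: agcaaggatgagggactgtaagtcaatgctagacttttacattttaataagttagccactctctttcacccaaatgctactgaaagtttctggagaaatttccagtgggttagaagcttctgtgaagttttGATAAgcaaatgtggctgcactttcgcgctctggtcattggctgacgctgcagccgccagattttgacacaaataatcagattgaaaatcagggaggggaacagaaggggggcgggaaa

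The GATA letters begin 80 bases before the start of *Klf1*, with the E-box 59 bases before it, and 119 bases before that of *Gfi1b*. GATAA or TTATC occurs in 22.6% of all windows and in 3 of the 12 windows of the factors, the other being 1 of the starts of *Tal1*. The E-box CAGATG (or CATCTG) occurs in 14.4% of all windows and in 1 of 12, the RUNX letters in 14.0% and 1 of 12, and the E-box CAGCTG, which reads the same on both strands, in 13.0% and 0 of 12.

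For *Tal1*, *Gata1*, *Gata2*, *Klf1* and *Gfi1b*, the lines labelled *Taf4a*-/- differed from each other by more on the log2 scale than the genotypes did. Between the libraries labelled *Taf4a*-/-, replicate 2 was above replicate 1 for 9 of the 10 factors, where 50.6% of all genes tested were, and *Runx1* was the exception. The differences were 2.00 for *Gata1*, 1.97 for *Spi1*, 1.75 for *Gfi1b*, 1.67 for *Tal1*, 0.73 for *Gata2* and 0.64 for *Klf1* on the log2 scale. A difference between these 2 libraries at least as large as that of *Gata1* was seen in 0.792% of all genes tested, and as that of *Tal1* in 1.47%. The median size of the difference over all genes was 0.16 in that genotype and 0.26 in WT. In WT, replicate 1 was above replicate 2 for 7 of the 10 factors, where 48.2% of all genes tested were. These WT differences included 1.54 for *Myb*, 1.23 for *Gfi1b*, 0.84 for *Tal1* and 0.72 for *Klf1*. With 1 library per line, a difference between lines and one between cultures cannot be told apart. The Y-linked *Eif2s3y* had reads in replicate 1 of both genotypes and 0 in replicate 2 of both. Replicate number thus went with this gene, and the part of the sex chromosomes in these differences was not tested.

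**Figure D3:**
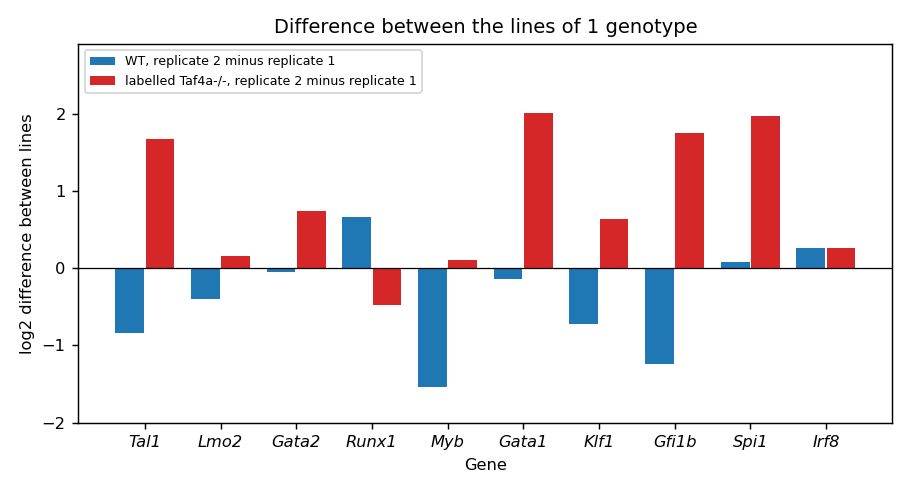
The log2 difference between replicate 2 and replicate 1 of each genotype for the 10 factors, with bars from 0. In the libraries labelled *Taf4a*-/- the bars of *Gata1*, *Gfi1b*, *Tal1* and *Spi1* reach between 1.67 and 2.00, and in WT those of *Myb* and *Gfi1b* point down to -1.54 and -1.23.

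The erythroid genes differed between the same lines. In a list of 24 genes, 23 were found and 19 tested, of which 2 were lower, 1 was higher and 16 were not called, with a median log2 fold change of -0.20. Replicate 2 was above replicate 1 for 18 of the 19 in the libraries labelled *Taf4a*-/-, and WT replicate 1 was above WT replicate 2 for 17. Over all genes tested these shares were 50.6% and 48.2%. The summed level was 6645 and 3269.9 normalized counts in WT lines against 3568 and 17766 in those labelled *Taf4a*-/-, a ratio of 4.98 between the latter. The embryonic beta-like globin gene *Hbb-y* had 1827 and 882 normalized counts in WT against 769 and 5574 in those labelled *Taf4a*-/-, and its neighbour *Hbb-bh1* had 1457 and 650.4 against 927 and 5279. The embryonic alpha-like globin gene *Hba-x* had 1263 and 328 in WT and 719 and 4504 in the others, and the mitochondrial iron carrier *Slc25a37* had 648 and 637 against 617 and 911. The highest value of each of these 4 genes was in the library labelled *Taf4a*-/- replicate 2. The called genes were *Tspan33* and *Hbb-b2*, lower, and *Rhd*, higher, and are named here because they were called. Reads of *Hbb-b2* may have been split with its near-identical copy *Hbb-b1*. Without the library labelled *Taf4a*-/- replicate 1, 5 genes of the list were called higher, and without replicate 2, 0 were. Without WT replicate 2, 1 gene was called lower and 0 higher.

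The GATA letters occurred in 13 of the 14 windows of 14 erythroid genes (92.9%), against 22.6% of all windows. Among these the globin genes share ancestry. The window of *Hbb-y*, the most expressed of them, lies at chr7:103853208-103853457 (GRCm38.p6, minus strand), and its match, in capitals, begins 162 bases before the start.

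*Hbb-y*: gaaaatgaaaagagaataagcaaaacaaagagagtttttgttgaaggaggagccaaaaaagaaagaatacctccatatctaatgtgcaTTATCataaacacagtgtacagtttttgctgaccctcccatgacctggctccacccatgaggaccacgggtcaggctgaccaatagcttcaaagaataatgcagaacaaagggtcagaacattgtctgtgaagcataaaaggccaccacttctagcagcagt

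Megakaryocyte and platelet genes fell in part. Their programme depends on Gata1 and Gfi1b, as that of red cells does, but neither factor was called. The part of either factor, or of *Spi1* and *Irf8*, in the values of these genes was not tested. All 13 genes of the list were found and 11 tested, of which 5 were lower, 0 were higher and 6 were not called, with a median log2 fold change of -2.11. The summed level was 2958 and 2832 normalized counts in WT against 952 and 1251 in those labelled *Taf4a*-/-. *Itgb3*, an integrin of platelets and other cells, had 1283 and 1615 against 640.2 and 687 (log2 fold change -1.12, SE 0.16, limma adjusted p = 0.00597). *Pf4*, a platelet chemokine, had 418 and 345 against 14.7 and 17.7 (log2 fold change -4.48, SE 0.28, adjusted p = 0.000976). *Itga2b*, the platelet integrin that also marks the first blood progenitors, had 610.2 and 344 against 142 and 284 and was not called (limma adjusted p = 0.0739). *Gp1ba* had 124 and 111 against 103 and 90.7 and was not called either. The other 3 called genes, *Clec1b*, *Ppbp* and *Gp5*, are named because they were called. Without the library labelled *Taf4a*-/- replicate 2, 8 genes were called lower, and without WT replicate 1, 3 were.

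**Figure D4:**
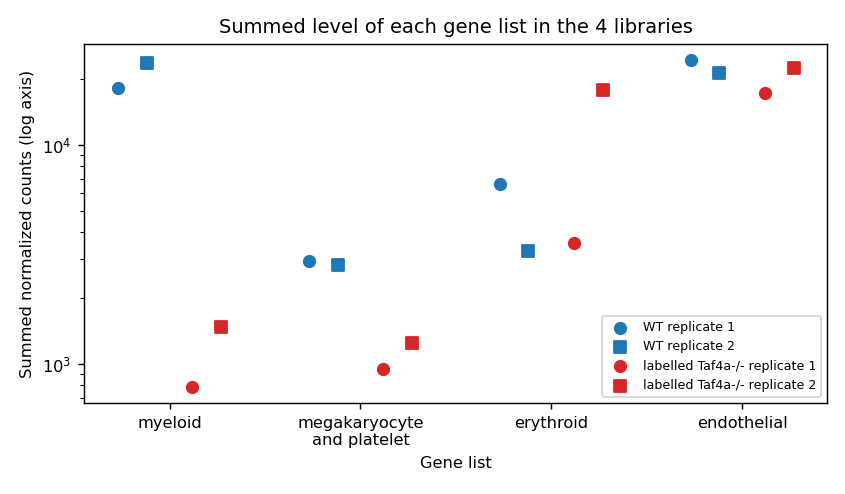
Summed normalized counts (log axis) of the myeloid, megakaryocyte and platelet, erythroid and endothelial lists, with 1 point for each library. The myeloid sums fall from 18034 and 23496 to 785 and 1472, whereas the erythroid sum is highest in the library labelled *Taf4a*-/- replicate 2, at 17766.

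Endothelial genes, whose cells share *Tal1*, *Lmo2*, *Gata2* and *Runx1* with blood, differed between lines as well. Of 20 genes, all tested, *Ramp2* and *Gpihbp1* were lower, 0 were higher and 18 were not called, with a median log2 fold change of -0.34. Replicate 2 was above replicate 1 for 18 of the 20 in the libraries labelled *Taf4a*-/-, where 50.6% of all genes tested were. The summed level was 24216 and 21276 normalized counts in WT against 17137 and 22246 in the others. *Cdh5*, the cadherin of endothelial junctions, had 2167 and 1195 in WT and 992 and 2226 in the libraries labelled *Taf4a*-/-. *Flt1* and *Kdr*, receptors for VEGF, and the factor *Ets1* had log2 fold changes of -0.36, -0.33 and 0.36 and were not called. The part of the endothelial levels in the values of *Tal1*, *Lmo2*, *Gata2* and *Runx1* was not tested. Without the library labelled *Taf4a*-/- replicate 2, 6 endothelial genes were called lower, without replicate 1 of that label 1 was, and with either WT library left out, or with no variance trend, 0 were.

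Most partners of the 10 factors were expressed more highly than the factors themselves, and 10 of 15 had a WT level per kilobase of exon above that of each factor. Of the 15 genes, all tested, *Ssbp2* was lower, *Ssbp3*, *Ldb1* and *Etv6* were higher and 11 were not called, with a median log2 fold change of 0.19. *Ldb1*, a member of the Tal1 complex, had 4906 and 4030.5 normalized counts in WT against 6892 and 6701 in those labelled *Taf4a*-/- (log2 fold change 0.61, SE 0.14, limma adjusted p = 0.0228). *Ssbp3*, which protects Ldb1 from degradation, had 5176 and 3861 against 7117 and 7439 (log2 fold change 0.70, SE 0.16, adjusted p = 0.0258). The E proteins *Tcf3* and *Tcf12*, with which Tal1 pairs, had log2 fold changes of 0.29 and 0.14, and *Kdm1a*, the demethylase recruited by Gfi1b, had 0.19, none of them called. None of the 4 calls of this list remained with no variance trend, and 0 genes were called higher when either library labelled *Taf4a*-/- was left out. In the other direction 2 were called lower without replicate 2 of that label, and 0 when any other library was left out.

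In a list of 27 other blood lineage factors, 22 were tested, of which 9 were lower, 3 were higher and 10 were not called, with a median log2 fold change of -0.65. *Maf*, a factor of macrophages and other cells, had 2146 and 2564 normalized counts in WT against 516 and 538 in those labelled *Taf4a*-/- (log2 fold change -2.15, SE 0.14, limma adjusted p = 0.00101). The 3 genes called higher were *Meis1*, *Tcf7* and *Lef1*, with log2 fold changes of 0.66, 1.27 and 1.82. With no variance trend 0 genes of the list were called higher, and without WT replicate 2 the list had 5 genes lower and 1 higher. *Tcf7* and *Lef1* carry Wnt signals in many cells beside lymphocytes, and *Meis1* is a partner of Hox proteins. Among these factors the values of *Lef1* followed those of *Myb* most closely, with 686 and 265 in WT and 1583 and 1428 in the others.

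**Figure D5:**
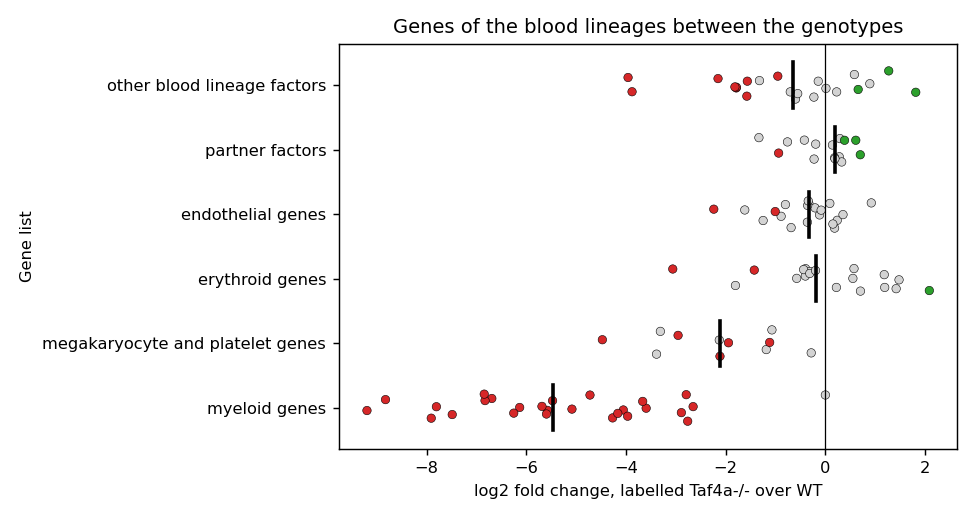
The log2 fold change of each tested gene (libraries labelled *Taf4a*-/- over WT) in 6 lists, with called genes in red (lower) or green (higher), other genes in grey and a black bar for the median of each list. The myeloid genes lie furthest left with a median of -5.47, and the medians of the erythroid, endothelial and partner lists are -0.20, -0.34 and 0.19.

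Other cell types that could hold these factors gave few or mixed signals. Of 8 surface genes of blood progenitors, 5 were tested, and *Cd34* and *Procr*, both also expressed by endothelium, were lower, with log2 fold changes of -1.54 and -1.33. *Kit*, with 2294 and 2724 normalized counts in WT against 1983 and 1816 in the others, and *Cd93* were not called. Of 9 mast cell genes 5 were found and *Hdc* alone was tested and lower, while the mast cell genes *Cpa3* and *Ms4a2* had at most 4.42 normalized counts in any library. Of 12 lymphoid genes 10 were found, 3 were tested, and *Il7r* and *Cd79b* were lower, while *Lck* was not called and *Cd79a* had too few reads to be tested. *Cd3e* and *Rag1* had at most 3.32 normalized counts in any library. Of 9 genes of V2 interneurons, which use *Gata2* and *Tal1*, 3 were tested, and *Foxn4* was higher (0.877 and 2.08 normalized counts in WT against 59.7 and 17.7), whereas *Gad2* and *Gad1* were not called. Of 10 trophoblast genes, a cell type that expresses *Gata2*, 9 were found and 7 tested, and *Tfap2c* was higher, while *Hand1*, *Eomes* and *Cdx2* were not called. The summed trophoblast level was 5003 and 2416 in WT and 7158 and 8705 in the libraries labelled *Taf4a*-/-, and its part in the values of *Gata2* was not tested. The call of *Foxn4* was lost when either WT library or the library labelled *Taf4a*-/- replicate 1 was left out, and that of *Hdc* was lost with the replicate block, with quantile normalization and without each library but WT replicate 1. With no variance trend 0 progenitor genes were called lower, and 1 was with a pseudocount of 0.5 or with each other library scaling. Of the lymphoid genes 1 was called lower with no filter on the mean, with quantile normalization and with the replicate block. At an adjusted p-value under 0.01, 0 genes of either list were called lower. All calls of both lists were also lost without WT replicate 2. The trophoblast genes called higher rose to 3 without WT replicate 1, and without the library labelled *Taf4a*-/- replicate 1, 2 were called higher and 2 lower.

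To compare the factors with each other, reads were set per kilobase of exon and per library total (RPKM). In WT the order of these levels was *Lmo2* (6.09), *Runx1* (5.49), *Spi1* (4.97), *Gata2* (3.48), *Irf8* (2.07), *Tal1* (2.00), *Gata1* (0.758), *Klf1* (0.552), *Gfi1b* (0.478) and *Myb* (0.403), each the mean of 2 libraries. The library values of neighbours in this order overlapped for *Lmo2* and *Runx1*, *Runx1* and *Spi1*, *Irf8* and *Tal1*, and each pair from *Gata1* to *Myb*. In the libraries labelled *Taf4a*-/- the order was *Runx1* (3.76), *Gata2* (3.63), *Lmo2* (3.40), *Tal1* (3.37), *Myb* (1.66), *Klf1* (0.689), *Gata1* (0.655), *Irf8* (0.294), *Gfi1b* (0.270) and *Spi1* (0.134). There, only *Myb* and *Klf1* were neighbours whose library values did not overlap. *Spi1* went from the third place to the last, and *Myb* from the last to the fifth.

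Over the 4 libraries, the genes nearest to each factor were sought among the 142 other tested genes of the lists, by the Euclidean distance of log2 values centred on their mean. The nearest to *Tal1* were *Nfe2* (distance 0.20), an erythroid and megakaryocyte factor, and the haem enzyme gene *Alas2* (0.46). Those nearest to *Gata1* were the adult alpha globin genes *Hba-a1* (0.42) and *Hba-a2* (0.66), which are near-identical copies. The nearest to *Gfi1b* were the platelet gene *Gp1bb* (0.29) and *Tek* (0.54), to *Klf1* *Fli1* (0.19) and *Gad2* (0.21), and to *Gata2* *Egfl7* (0.19) and *Slc25a37* (0.29). *Spi1* was nearest to the Fc receptor gene *Fcgr1* (0.75) and to *Cd14* (1.11), and *Irf8* to *Cd68* (0.40) and *Ppbp* (0.55). *Runx1* was nearest to *Flt1* (0.26) and *Sox17* (0.32), *Lmo2* to *Gata3* (0.35) and *Batf3* (0.38), and *Myb* to *Lef1* (0.41) and *Rhd* (0.73). These distances describe 4 libraries and carry no test.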

How the data were processed

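Polyadenylated RNA of 4 libraries, 2 WT and 2 labelled *Taf4a*-/-, was sequenced. Per the labels and the methods of the study, the authors mapped reads to mm9/NCBI37 with TopHat 1.3.3, counted them per gene with HTSeq 0.5.3p1 and divided the counts by DESeq size factors. The deposited values are these normalized counts, for 24637 genes, and the annotation release is not given in the sources used here. All value columns belong to the 4 libraries. Read as multiples of the smallest positive value, 100% of the values were whole within 0.02, so reads could be recovered. Intervals of counting error were not given, and reads were not marked by molecule.

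For genes with a mean of at least 10, log2(value + 1) was fitted in limma (version 3.58.1, R 4.3.3) by lmFit and trended eBayes, with two-sided p-values and Benjamini-Hochberg adjustment. Nothing in the labels pairs the replicate numbers. The p-values set the genotype difference against the spread between these lines. The variance of each gene was drawn toward that of genes with a similar mean (prior degrees of freedom 4.17). The fit was tested on simulated data with 200 changed genes before use, of which 100% were recovered, and 4.31% of the calls were false. Every gene was simulated with the median dispersion of 0.0106, and no changed gene was drawn from those with few reads. Error control for genes with few reads or a wide spread between lines was thus not tested. The factors and lists were chosen with earlier results of these data known. Named genes are the 10 factors, *Taf4a*, up to 4 genes of each list with the highest mean, and the 2 list genes nearest to each factor. Chosen after their values were seen were the genes named as the few of a list that were called, not called or near zero, *Tnnt2*, *Pou5f1*, *Xist*, *Eif2s3y* and *Gm16786*. Gene coordinates are those of the NCBIM37 annotation, and promoter windows are those of RefSeq on GRCm38.p6, limited to the 250 bases before a start. Python 3.11.15 with matplotlib 3.10.9 drew the plots.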

Additional observations from a re-analysis of the deposited data

How the results depend on the processing

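Alternatives were other pseudocounts, filters, scalings, variance models and thresholds, a replicate block and the omission of single libraries. A voom fit of the recovered reads was chosen after seeing the data and gave 3 factors lower and 1 higher. The planned edgeR and DESeq2 tests were not run. Of the 10 factors, 3 were lower and 1 was higher, and at an adjusted p-value under 0.01 or with no variance trend 2 were lower and 0 higher. Over all genes (2928 lower, 1906 higher) these settings gave 1119 and 331, and 1741 and 856, and over the list genes (50 lower, 9 higher) 32 and 1, and 43 and 3. The cause was not tested beyond the stricter threshold. With one library left out, a fit that takes the lone library to vary like the other genotype, the factors lower ran from 1 to 2 and higher from 0 to 2, all genes lower from 1222 to 3038 and higher from 624 to 2476, and list genes lower from 29 to 57 and higher from 4 to 12. With the replicate block 3 factors were lower and 1 higher (all genes 2657 and 1536, list genes 49 and 9). The correlation of same-numbered deviations over all genes tested was 0.012, which cannot show whether libraries of the same number shared a batch or culture. Signs changed for *Gata2* (0.018 with equal library totals, 0.22 with quantile normalization) and, with one library left out, for *Gata2* (-0.41 to 0.33), *Klf1* (lowest -0.090 without WT replicate 2, then -0.048 without the library labelled *Taf4a*-/- replicate 2, highest 0.63), *Gata1* (-1.58 to 0.43) and *Tal1* (-0.30 to 1.38). None of these 4 was called in the fit of all 4 libraries. Depth was lowest behind *Klf1* and *Gfi1b*, with 5 to 35 reads in a library.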
